A study of Mus musculus with 6 samples.

Results

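Prostaglandins are short-lived lipid signals, and the genes described here make them, receive them and break them down. The 10 genes were the cyclooxygenases Ptgs1 and Ptgs2, the terminal synthases Ptges, Ptgis and Tbxas1, the receptors Ptgir, Ptger2, Ptger3 and Ptger4, and the degrading enzyme Hpgd. They were chosen by name, as every non-control array probe carrying one of these gene names, which gave 15 of 55681 probes and 10 of 34797 gene names. RNA came from aortic arteries of C57BL/6 mouse fetuses, of which 3 arrays held Nod1 +/- and 3 held Nod1 -/- fetuses. NOD1 is an intracellular sensor of bacterial peptidoglycan fragments and FK565 is a synthetic ligand of it. All fetuses were carried by Nod1 -/- dams mated with Nod1 +/- males, and the dams received 500 µg of FK565 under the skin at E18.5, 6 h before the vessels were taken. Both genotypes therefore shared the ligand and a Nod1 -/- mother, and no array without the ligand was analysed here. Whether an array held 1 fetus or a pool was not given, so p-values measure only the spread between these samples, which may be technical.

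Phospholipases free arachidonic acid from membranes, and a cyclooxygenase turns it into prostaglandin H2, the common precursor. Ptgs1 encodes the largely constitutive cyclooxygenase and Ptgs2 the one induced by inflammatory signals. Terminal synthases then make prostaglandin E2 (Ptges), prostacyclin (Ptgis) or thromboxane (Tbxas1), which act on G protein-coupled receptors of the same or neighbouring cells. Prostaglandins are carried back into cells and inactivated by the dehydrogenase encoded by Hpgd. In the fetal vessel wall, prostaglandin E2 keeps the ductus arteriosus open, and prostacyclin relaxes smooth muscle and restrains platelets.

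In Nod1 +/- arteries, the inducible cyclooxygenase Ptgs2 was 4.09-fold higher than in Nod1 -/- arteries, and the prostacyclin receptor Ptgir was 2.97-fold higher. The degrading enzyme Hpgd was 2.78-fold lower in Nod1 +/- arteries, a call that was lost when either of 2 Nod1 -/- arrays was left out. The constitutive cyclooxygenase, the terminal synthases and the E-type receptors that could be tested did not pass on their brightest probe, but the prostacyclin synthase Ptgis passed on a dimmer probe and on the mean of its probes. Of the 9 members tested, 2 were higher, 1 was lower and 6 did not pass at an adjusted p of 0.05 in limma. That linear model draws each gene's variance towards a value common to all genes. Over all 21478 genes tested the same rule called 18.7%, with 7.66% higher and 11.0% lower in Nod1 +/-. The median difference was -0.13 over the 9 members and -0.10 over all genes. The genotypes did not overlap in 4 of the 9 members and in 42.4% of all genes.

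Each level is the log2 of the array's processed signal minus that array's 75th percentile, so 0 is a signal equal to that percentile and a difference of 1 is a doubling. Differences are Nod1 +/- minus Nod1 -/-. Levels of different probes are not comparable with each other. The 75th percentile lay between 371.7 and 439.5 signal units on the 6 arrays, and 48.6 to 58.3% of probes were well above background. Slide row 1 held only Nod1 -/- replicates 1 and 2, and row 2 held Nod1 -/- replicate 3 with all Nod1 +/- arrays, so row is largely confounded with genotype, and with row as a block the comparison rests on Nod1 -/- replicate 3 against the Nod1 +/- arrays. With each array centred on its median instead, the median difference of all genes moved from -0.10 to 0.01. The calls then moved from 1646 higher and 2366 lower to 1580 higher and 926 lower. Nod1 itself read 3.38 ± 0.35 (SD, n = 3) in Nod1 +/- and 3.25 ± 0.09 (n = 3) in Nod1 -/- arteries, a difference of 0.13 (adjusted p = 0.648). Which part of Nod1 is deleted is not given in the sources used here, so its probe checks nothing about the labels.

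Marker lists of some cell types differed by genotype and others did not. Over all genes tested, 18.7% were called, 7.66% higher and 11.0% lower in Nod1 +/- arteries. Of 9 neutrophil markers, 5 were higher and 0 lower in Nod1 +/- arteries, and their mean level ranged from 0.94 to 1.56 there against -0.87 to -0.64 in Nod1 -/- arteries. Of these, Cxcr2 was too dim to count as above background in any Nod1 -/- artery and was at least 12.4-fold higher in Nod1 +/-. This bound compares the Nod1 +/- mean with a floor averaged over the Nod1 -/- arrays, each array's floor being the dimmest signal called well above background or Cxcr2's own signal, whichever was higher. Fibroblast markers had 3 of 7 lower, with mean levels of 5.56 to 5.66 against 5.89 to 6.05, and macrophage markers had 2 of 9 lower, at 2.09 to 2.23 against 1.98 to 2.80. Endothelial markers had 1 of 9 lower, at 2.21 to 2.40 against 2.46 to 2.58. Smooth muscle markers, the defining genes of the arterial media, had 0 of 8 changed by limma's adjusted p and 0 at an unadjusted p under 0.05 (35.6% of all genes tested were under it), and stood at 4.36 to 4.72 against 4.26 to 4.68. Mast cell markers had 2 of 7 higher, Kit and Hdc, while their mean levels overlapped at 2.50 to 2.62 against 1.85 to 2.71. Platelet markers had 1 of 6 higher and 2 lower, with mean levels of -1.15 to -0.53 against -0.44 to -0.30. Skeletal muscle markers averaged 6.05 on Nod1 +/- replicate 1 and 1.56 to 2.23 on the other arrays, so that array stood apart, although 0 of its 5 tested genes passed and 0 had an unadjusted p under 0.05. Nerve and Schwann cell markers averaged 2.19 on Nod1 -/- replicate 1 and -1.10 to 0.70 elsewhere, with 0 of 7 passing and 1 at an unadjusted p under 0.05. In whole vessels, fewer cells of a type and less RNA per cell cannot be told apart, and the part of these cells in the results was not tested.

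**Figure D1:**
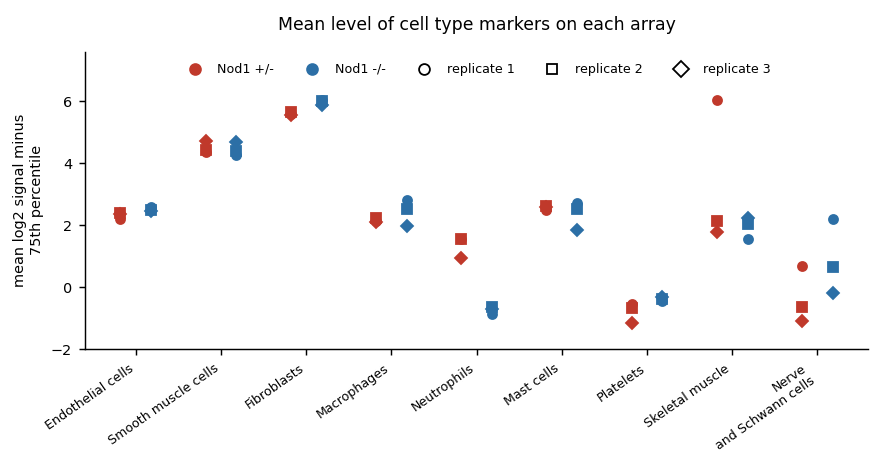
Mean level of each cell type's marker genes on each array, as log2 signal minus the array's 75th percentile, for 3 Nod1 +/- and 3 Nod1 -/- arrays. The neutrophil lists of the genotypes lie apart (0.94 to 1.56 against -0.87 to -0.64), the smooth muscle lists overlap, and Nod1 +/- replicate 1 stands apart in skeletal muscle genes (6.05).

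Ptgs2, the inducible cyclooxygenase, was read by 1 probe spotted 10 times on each array, at chr1:151954744-151954803 of the mm9 mouse genome on the plus strand. Its level was -1.97, -2.23 and -2.10 on the Nod1 +/- arrays and -4.19, -4.06 and -4.14 on the Nod1 -/- arrays. All 3 Nod1 +/- arrays were above all 3 Nod1 -/- arrays. The means were -2.10 ± 0.13 (SD, n = 3) and -4.13 ± 0.06 (n = 3), a difference of 2.03 with a standard error of 0.11 and a 95% interval of 1.77 to 2.29 (adjusted p = 0.000557). The signal in Nod1 -/- arteries was close to background: on replicate 3 only 2 of 9 usable spots were well above it, and the probe was not counted as above background there. With the normexp background correction in place of the scanner's subtraction, the difference was 0.90 (adjusted p = 0.000974). That run also added an offset of 50 signal units to each spot, which shrinks log2 differences between dim signals.

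The promoters of the 3 changed members are shown because these genes moved in different directions, and they let motif content be compared. They are RefSeq promoter windows of the GRCm38.p6 assembly, 250 bases before to 50 bases after the annotated start, on the plus strand at chr1:150099781-150100080 (Ptgs2), chr7:16906240-16906539 (Ptgir) and chr8:56294302-56294601 (Hpgd). Capitals mark every match, on either strand, to any of 7 motifs. These were the kappaB consensus of 10 letters, and for C/EBP proteins the motif TTNNGNAA. The AP-1 motif was TGANTCA. For factors bound to cyclic AMP response elements (CRE) the letters TGACGT were searched. The E-box was taken as the palindrome CACGTG. STAT sites (GAS) were searched as TTCNNNGAA. The TATA box was searched as the letters TATAAA alone.
Ptgs2 promoter: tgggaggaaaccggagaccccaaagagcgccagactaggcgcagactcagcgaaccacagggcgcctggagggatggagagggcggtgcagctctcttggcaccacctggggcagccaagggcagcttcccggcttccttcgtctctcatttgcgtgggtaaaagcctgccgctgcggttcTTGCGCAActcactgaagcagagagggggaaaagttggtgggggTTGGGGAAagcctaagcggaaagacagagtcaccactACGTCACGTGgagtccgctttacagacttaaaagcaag
Ptgir promoter: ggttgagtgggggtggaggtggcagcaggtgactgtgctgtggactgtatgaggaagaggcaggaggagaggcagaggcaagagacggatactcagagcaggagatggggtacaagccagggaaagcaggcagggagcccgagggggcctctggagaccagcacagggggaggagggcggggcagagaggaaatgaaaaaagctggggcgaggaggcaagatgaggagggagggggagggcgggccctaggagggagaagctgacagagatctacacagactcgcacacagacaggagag
Hpgd promoter: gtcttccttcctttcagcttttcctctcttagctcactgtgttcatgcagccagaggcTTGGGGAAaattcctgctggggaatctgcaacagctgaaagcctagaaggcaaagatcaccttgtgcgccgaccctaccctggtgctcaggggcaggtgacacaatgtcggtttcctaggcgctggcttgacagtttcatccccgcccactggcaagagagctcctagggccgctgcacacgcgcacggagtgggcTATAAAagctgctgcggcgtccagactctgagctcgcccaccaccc
The Ptgs2 window held 2 C/EBP matches, which begin 69 and 25 bases before the annotated start. It also held a CRE match after the annotated start that overlaps an E-box match. Where transcription begins in these arteries was not tested, so these positions hold for the annotation only. The Hpgd window held 1 C/EBP match, which begins 192 bases before the annotated start, and 1 TATA match, which begins after it. The Ptgir window held 0 matches to the 7 motifs. Among 32851 mouse promoter windows of this length, a C/EBP match was found in 40.7%, a CRE match in 7.51%, an E-box match in 7.15% and a TATA match in 13.6%. The kappaB consensus, present in 8.46% of windows, was in 0 of the 9 member windows given, and Ptgis had no window. AP-1 and GAS matches were in 7.81% and 8.30% of windows. A match here is a string of letters and not a shown binding site.

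Ptgs1, the constitutive cyclooxygenase, read 1.77, 2.44 and 1.85 in Nod1 +/- arteries and 2.40, 2.36 and 2.23 in Nod1 -/- arteries. Nod1 +/- replicates 1 and 3 were the lowest, and the genotypes overlapped. The difference was -0.31, with a 95% interval of -0.78 to 0.16 (adjusted p = 0.299). It was -0.52 without Nod1 +/- replicate 2 (adjusted p = 0.0563) and -0.18 without Nod1 +/- replicate 1 (adjusted p = 0.581).

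**Figure D2:**
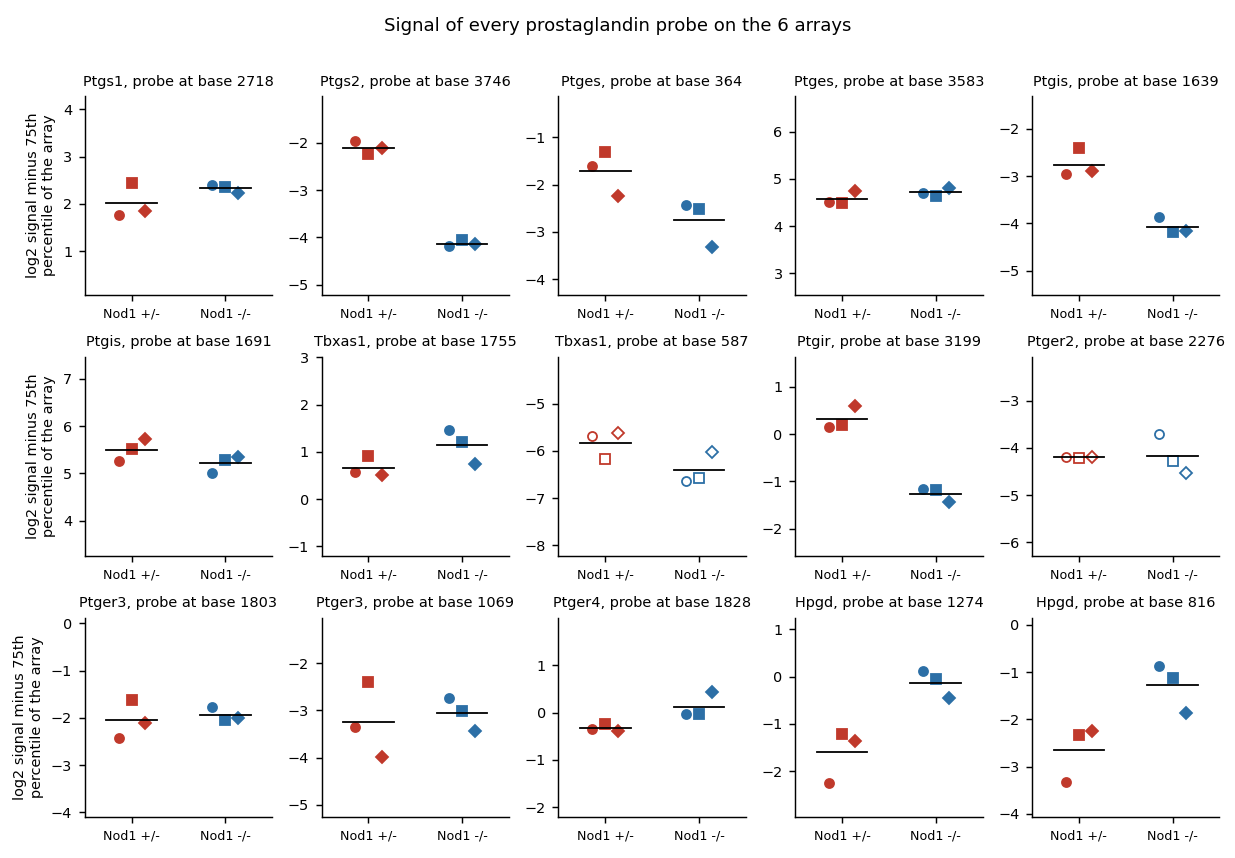
Level of each probe of the 10 genes on each array, as log2 signal minus the array's 75th percentile. Nod1 +/- arrays are red and Nod1 -/- arrays blue, circles, squares and diamonds are replicates 1, 2 and 3, and lines are means. Open symbols are probes that did not pass the filter on dim probes. Genotypes lie apart for Ptgs2, Ptgir, Ptger4, both Hpgd probes and the dimmer probes of Ptges and Ptgis.

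Among the terminal synthases, Ptges encodes the membrane-bound synthase of prostaglandin E2. Its brighter probe, at base 3583 of the transcript, read 4.52, 4.48 and 4.74 in Nod1 +/- and 4.69, 4.64 and 4.80 in Nod1 -/- arteries. The genotypes overlapped, and the difference was -0.13 (adjusted p = 0.432). A dimmer probe at base 364, 3219 bases away, read -1.60, -1.30 and -2.23 in Nod1 +/- and -2.42, -2.51 and -3.32 in Nod1 -/- arteries. On that probe every Nod1 +/- array was above every Nod1 -/- array, and the difference was 1.04 with a 95% interval of 0.24 to 1.84, which did not pass over all 30166 kept probes (adjusted p = 0.0813). The first 30 bases of each probe are shown because the probes read different stretches of the transcript and gave different values.
Ptges base 364: aaccctctgatcgcctggatacatttcctc
Ptges base 3583: atgataaaggactaaacctctgaacctgta
The gap between the probes on an array (dimmer minus brighter) averaged -6.29 in Nod1 +/- and -7.46 in Nod1 -/- arteries, a difference of 1.18 (exact two-sided permutation test, p = 0.1, the smallest that 3 against 3 arrays can give). This comparison was added after the values had been seen and was run for the 4 members with several kept probes; for Ptger3 the gap differed by -0.06 (exact p = 1) and for Hpgd by 0.12 (exact p = 0.6).

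Ptgis encodes prostacyclin synthase. Its brighter probe read 5.26, 5.52 and 5.73 in Nod1 +/- and 5.0, 5.28 and 5.35 in Nod1 -/- arteries. The genotypes overlapped, and the difference was 0.29 (adjusted p = 0.247). A dimmer probe, which the array design assigns to another transcript model 11379 bases away in the genome, read -2.96, -2.41 and -2.90 in Nod1 +/- and -3.87, -4.18 and -4.15 in Nod1 -/- arteries. On it the genotypes did not overlap, and it was 2.49-fold higher in Nod1 +/- (difference 1.31, adjusted p = 0.00862 over all kept probes, of which 15.9% were called). It was well above background on 3 Nod1 +/- and 2 Nod1 -/- arrays. The gap between the probes on an array differed by 1.02 between genotypes, without overlap (exact two-sided permutation test, p = 0.1). The probe chosen thus decided the call of Ptgis: the mean of both probes was called, with a difference of 0.80 (adjusted p = 0.0113).

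Tbxas1, thromboxane synthase, read 0.57, 0.91 and 0.50 in Nod1 +/- and 1.46, 1.22 and 0.75 in Nod1 -/- arteries. Nod1 -/- replicates 1 and 2 were the highest, replicate 3 lay among the Nod1 +/- arrays, and the difference was -0.48 (adjusted p = 0.159). Macrophages and platelets are known sources of thromboxane, and their part in the result was not tested. The mean platelet marker level was highest on Nod1 -/- replicate 3 (-0.30, against -0.44 and -0.40 on replicates 1 and 2). The mean macrophage marker level was highest on Nod1 -/- replicates 1 and 2. These are also the arrays of slide row 1, and with row as a block the difference was -0.09 (adjusted p = 0.836). A second Tbxas1 probe was well above background on 0 of the 6 arrays and was not tested.

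Ptgir, the prostacyclin receptor of smooth muscle and platelets, lies at chr7:17496120-17496179 of mm9 by its probe. It read 0.15, 0.19 and 0.59 in Nod1 +/- and -1.16, -1.18 and -1.44 in Nod1 -/- arteries. Every Nod1 +/- array was above every Nod1 -/- array, and all 6 were well above background. The means were 0.31 ± 0.24 (SD, n = 3) and -1.26 ± 0.15 (n = 3), a difference of 1.57 with a standard error of 0.16 and a 95% interval of 1.19 to 1.95 (adjusted p = 0.00273). While the receptor was higher, its ligand's synthase was not called on the brighter Ptgis probe.

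Of the receptors for prostaglandin E2 among the members, 0 of 2 tested were called by limma's adjusted p. Of these, 1, Ptger4, had an unadjusted p under 0.05, a level met by 35.6% of all genes tested. Ptger4, which raises cyclic AMP and is known in ductus closure, read -0.34, -0.24 and -0.39 in Nod1 +/- and -0.04, -0.04 and 0.43 in Nod1 -/- arteries. The genotypes did not overlap, as for 42.4% of all genes, and the difference of -0.45 did not pass (adjusted p = 0.0959). It was -0.76 with slide row as a block (adjusted p = 0.0460) and -0.29 without Nod1 -/- replicate 3 (adjusted p = 0.124). Ptger3, a receptor that lowers cyclic AMP, differed by -0.11 on its brighter probe (adjusted p = 0.736) and by -0.18 on the other, with overlap on both. Ptger2, which raises cyclic AMP, was dim: it was well above background on 0 Nod1 +/- and 2 Nod1 -/- arrays, did not pass the filter and was not tested. Its readings were -4.19, -4.21 and -4.19 against -3.71, -4.29 and -4.53, which overlapped.

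Hpgd, the enzyme that starts prostaglandin inactivation, was read by a brighter probe at chr8:58799399-58799458 of mm9 and another 458 bases away at chr8:58798941-58799000. The brighter probe read -2.25, -1.21 and -1.36 in Nod1 +/- and 0.13, -0.05 and -0.46 in Nod1 -/- arteries. All Nod1 +/- arrays lay under all Nod1 -/- arrays, and the lowest value was on Nod1 +/- replicate 1, the array with high skeletal muscle markers. The means were -1.60 ± 0.56 (SD, n = 3) and -0.13 ± 0.30 (n = 3), a difference of -1.48 with a standard error of 0.31 and a 95% interval of -2.22 to -0.73 (adjusted p = 0.0244). Without Nod1 +/- replicate 1 the difference was -1.16 (adjusted p = 0.0314). The other probe gave a difference of -1.36, also without overlap (adjusted p = 0.0586 over all kept probes). The adjusted p was 0.0782 without Nod1 -/- replicate 1, 0.0899 without Nod1 -/- replicate 2, and 0.199 when slide row entered the fit as a block, where the difference was -1.15. Those 2 Nod1 -/- arrays are the ones of slide row 1. The probes begin as follows, shown because both readings fell on the same side.
Hpgd base 816: gaattcattttcaagattatgacatctctc
Hpgd base 1274: aagctcctttacaatggaaatatttagtaa

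**Figure D3:**
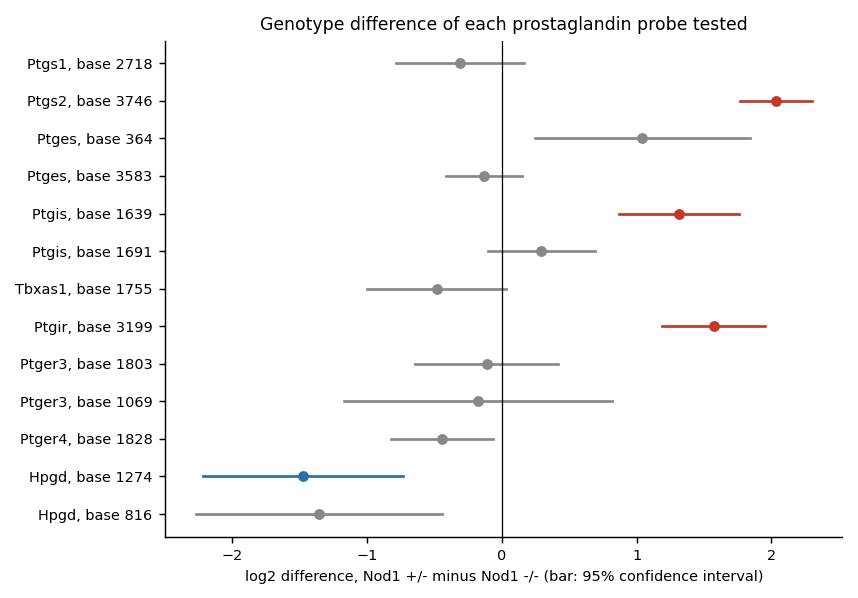
Difference between genotypes (Nod1 +/- minus Nod1 -/-, log2) of the 13 kept probes of the 10 genes, with 95% intervals. Red is higher, blue lower and grey not called, by adjusted p from limma across the 30166 probes kept; Ptgs2 (2.03), Ptgir (1.57), the dimmer Ptgis probe (1.31) and the brighter Hpgd probe (-1.48) were called, and the other Hpgd probe (-1.36) was not.

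The other genes of the eicosanoid pathway, the family of signals made from arachidonic acid, were taken from a list of 59 names, of which 58 were on the array and 42 could be tested. Of the 42, 5 were higher and 8 were lower in Nod1 +/- arteries, with a median difference of -0.32. That makes 31.0% called, beside 18.7% of all genes.

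Among the 9 tested genes listed under release of arachidonic acid, Acsl4 was higher (difference 0.48, adjusted p = 0.0330). Its enzyme attaches arachidonic acid to coenzyme A and does not release it. Mgll, monoacylglycerol lipase, was lower (difference -0.61, adjusted p = 0.0237). Pla2g4a, the cytosolic phospholipase that feeds cyclooxygenases, differed by 0.04 and did not pass. By limma's adjusted p, 0 of 7 tested terminal synthases passed, with 4 at an unadjusted p under 0.05, a level met by 35.6% of all genes. Ptges2 differed by 0.39 (adjusted p = 0.128; 0.0435 without Nod1 +/- replicate 3), Ptges3 by 0.18 (adjusted p = 0.308) and Ptgds, the prostaglandin D2 synthase, by -0.01. Of 3 dimmer Ptges3 probes, 1 passed over all kept probes (0.36, adjusted p = 0.0428), and the others differed by 0.38 (adjusted p = 0.0573) and 0.28 (adjusted p = 0.165).

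Of 3 tested receptors outside the member list, Tbxa2r and Ptgfr were lower and Ptger1, a further receptor for prostaglandin E2, did not pass (difference -0.39, adjusted p = 0.174). Tbxa2r, the thromboxane receptor that contracts smooth muscle, read 1.19, 1.57 and 1.72 in Nod1 +/- and 2.25, 2.18 and 2.33 in Nod1 -/- arteries, a difference of -0.76 (adjusted p = 0.0238). Ptgfr, the prostaglandin F receptor, differed by -0.91 (adjusted p = 0.0348). It differed by -0.47 with the normexp background correction and its offset of 50 signal units (adjusted p = 0.0282). Ptgdr, a prostaglandin D receptor, was on the array but too dim to test. Hence the prostacyclin receptor was called higher and the thromboxane receptor lower. For both receptors the genotypes did not overlap, as for 42.4% of all genes. The Ptgir call held in 21 of 21 alternative runs, and the Tbxa2r call was lost in 9 of 21.

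Genes of transport and breakdown went both ways. Slco3a1, a carrier of prostaglandins, read 2.92, 2.90 and 3.05 in Nod1 +/- and 0.84, 0.90 and 1.45 in Nod1 -/- arteries, with every Nod1 +/- array above the others (3.71-fold, adjusted p = 0.00240). Abcc4, which exports prostaglandins from cells, was 2.12-fold higher (adjusted p = 0.00767). Slco2a1, the transporter that takes prostaglandins up for breakdown by the Hpgd enzyme, read -0.02, 0.54 and 0.42 in Nod1 +/- and 1.08, 1.01 and 0.995 in Nod1 -/- arteries. It was lower by a difference of -0.72 (adjusted p = 0.0305), a call that was lost, like that of Hpgd, without Nod1 -/- replicate 1 or Nod1 -/- replicate 2, and, unlike that of Hpgd, without Nod1 +/- replicate 3 or Nod1 -/- replicate 3.

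The leukotriene and epoxide branches share the arachidonic acid substrate. Fpr2, a receptor for formyl peptides and lipoxins, was 8.54-fold higher (adjusted p = 0.00261). Ltb4r1, the leukotriene B4 receptor, was 7.55-fold higher in Nod1 +/- (adjusted p = 0.00115). It read 0.45, 0.98 and 0.81 in Nod1 +/- and -1.82, -2.39 and -2.30 in Nod1 -/- arteries. Neutrophils carry both receptors, and neutrophil markers had 5 of 9 higher in these arteries; their part in the result was not tested. Ltc4s, leukotriene C4 synthase, was lower (-0.69, adjusted p = 0.0479). Of the genes listed under the epoxide branch, 3 of 4 tested were lower, beside 11.0% of all genes tested. Ephx1, microsomal epoxide hydrolase, was lower by a difference of -1.18 (adjusted p = 0.00175). The others were the cytochrome P450 genes Cyp2j6 (-0.78, adjusted p = 0.0339) and Cyp2j9 (-0.82, adjusted p = 0.00874).

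Of the 13 called pathway genes, Slco3a1, Ltb4r1, Fpr2 and Ephx1 kept the call in every alternative run. Leaving out a single array ended the call of 7: Mgll, Acsl4, Ptgfr, Tbxa2r, Slco2a1, Ltc4s and Cyp2j6. Without Nod1 -/- replicate 1 or Nod1 -/- replicate 2 each of these 7 was lost, and leaving out any of the other 4 arrays ended at least 1 of them, with an adjusted p of 0.0510 to 0.134 where lost. Abcc4 and Cyp2j9 were lost without the first replicates of both genotypes (adjusted p = 0.0595 and 0.111).

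**Figure D4:**
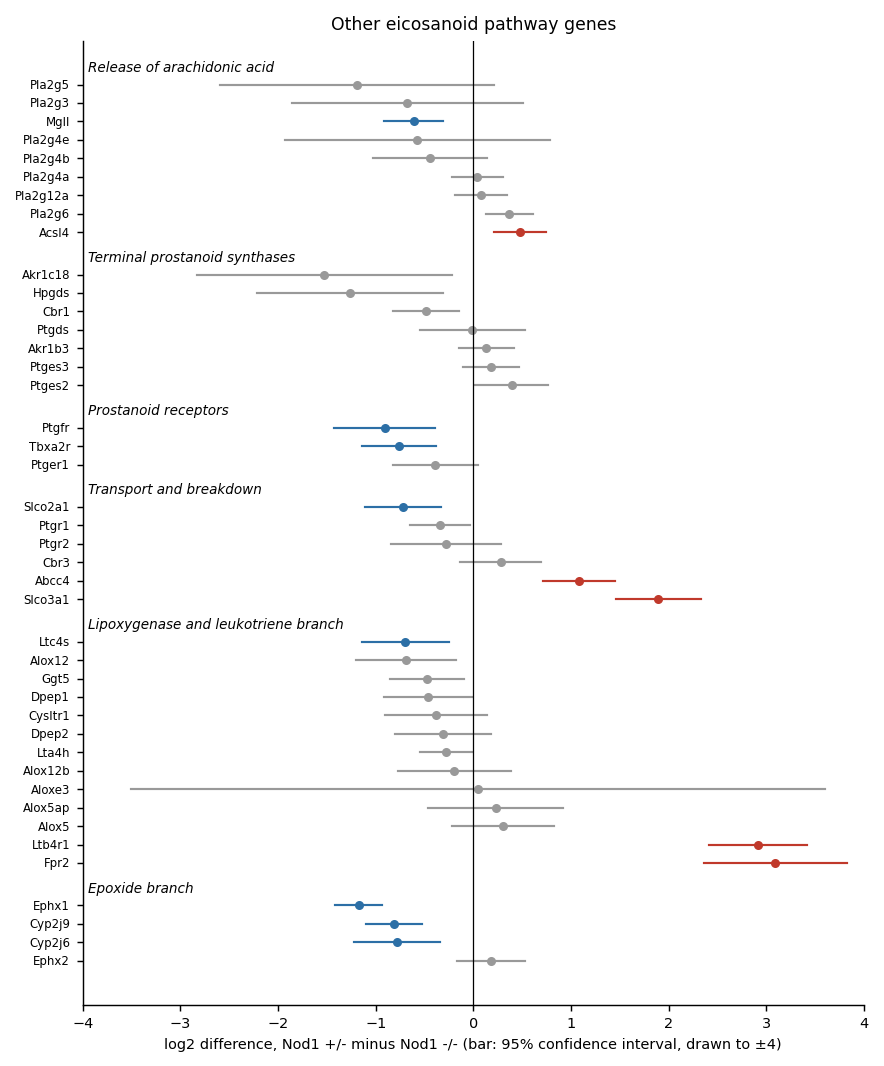
Difference between genotypes (Nod1 +/- minus Nod1 -/-, log2) of the tested eicosanoid pathway genes by group, with 95% intervals. Red is higher, blue lower and grey not called by limma's adjusted p; Fpr2 and Ltb4r1 lie at 3.09 and 2.92 and Ephx1 at -1.18.

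The genes whose levels over the 6 arrays ran most like Ptgs2 were an unnamed probe (Pearson r = 0.999), Baz1a, a chromatin remodelling subunit (r = 0.998), and Osmr, the oncostatin M receptor (r = 0.998). Baz1a and Osmr were higher in Nod1 +/- arteries, by differences of 1.14 and 1.44. The arrays share genotype groups, so these values describe a common split of the genotypes.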

How the data were processed

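Expression was measured on 6 one-colour Agilent arrays, 3 per genotype. The authors deposited linear spot intensity values from which the scanner software had already subtracted background. That software was version 10.7.1.1 of Agilent Feature Extraction in the file headers, and version 9.5.1.1 according to the submitters' processing notes. The deposited series-wide values, also an intensity, served as an alternative.

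Control and outlier spots were left out, and 0 spots were saturated. Of 55681 probes, 134 had no usable spot on some array. Log2 signals were averaged per probe, and each array's 75th percentile was subtracted. Probes well above background on at least 3 arrays were kept (30166), and a gene was its brightest kept probe. Genotypes were compared with limma 3.58.1 in R 4.3.3 (files read with version 1.17.8 of data.table), with Benjamini-Hochberg adjustment over 21478 genes. The fit was tested on simulated data. Exact permutation tests, motif searches and plots used Python 3.11.15, pandas 2.3.3, numpy 2.4.6 and matplotlib 3.10.9.

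The members and lists were chosen with earlier results of these data known. Named were Nod1, all members, each called pathway gene with 10 further pathway genes, and the 3 genes most like Ptgs2. Replicate numbers are not stated to pair arrays, so they were not taken as pairs. The same numbers correlated at 0.08, 0.28 and 0.11 in their deviations and unlike numbers at -0.31 to 0.13, which does not exclude pairing. The number of arrays limits the precision. Alternatives covered background correction, scaling, filter, probe choice, blocks, weights and single arrays left out.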

Additional observations from a re-analysis of the deposited data

How the results depend on the processing

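The members' count of calls stayed between 2 and 4 in each alternative run, of 9 tested, or 10 with no filter and 8 with probes above background on all arrays (2 called in both). Ptgs2 and Ptgir kept their call in 20 and 21 alternatives, with an adjusted p of 0.000327 to 0.0178 and 0.000701 to 0.0359. Hpgd lost it in 8 of 22 (adjusted p 0.0586 to 0.199). Calls over all genes fell from 4012 to 2506 with median scaling, 1636 with no filter, 1033 with a slide row block, 2281 with Xist as a covariate, 1203 with a 2-fold minimum, 641 without both first replicates and 1459 to 3387 with single arrays left out. Pathway calls went from 13 to 7, 6, 6, 6, 5, 4 and 6 to 12 in the same order, and to 21 with array weights, where calls over all genes rose to 6016. The run with no filter tested 34743 genes and 57 pathway genes, in place of 21478 and 42. With the replicate block 4040 genes, 2 members and 9 pathway genes were called, although replicate numbers were not taken as pairs.

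Ptger4 was called only with the slide row block. Ptges turned to 0.45 with the mean of its probes and 1.04 with the dimmer probe. Ptger3 turned to 0.16 without both first replicates and ran from -0.33 to 0.07 with single arrays left out. Ptgds turned to 0.10 with median scaling, 0.19 with array weights and 0.11 with Xist as a covariate, and ran from -0.18 to 0.20 with single arrays left out. With single arrays left out, Pla2g4a ran from -0.013 to 0.11 and Nod1 from -0.070 to 0.24. The endothelial marker difference was -0.10 without both first replicates. The cause was not tested in any of these. Readings near background (Ptgs2 in Nod1 -/- arteries, Ptger2, the dimmer probes) bound what can be read.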
